A study of Mus musculus with 22 samples.

Results

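The comparison set spinal cord of mice homozygous for the E196K change in Yars (HOM, genotype label E196K/E196K, 10 libraries) against spinal cord of heterozygous mice (HET, label E196K/+, 6 libraries). These 16 of 22 libraries were chosen by the genotype label alone. Both groups therefore carry at least 1 E196K allele, and the comparison asks what a second one adds. All mice were 7 months old and on the strain background B6N;B6J. The other 6 libraries were wild type (WT, label WT). They entered the fit, share the estimate of the spread, and serve as a reference for the HET and HOM levels where this is stated. The whole cord was lysed, so every value is a mixture over its cell types, and fewer cells of a type cannot be told apart from less RNA per cell. The labels do not say that each library came from its own animal, so every p-value here rests on library-to-library spread, which may be in part technical.

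Yars encodes tyrosyl-tRNA synthetase, the enzyme that loads tyrosine onto its tRNA. Dominant changes in this gene, E196K among them, cause a form of Charcot-Marie-Tooth disease, an inherited neuropathy that affects long motor and sensory axons. Motor neurons have their cell bodies in the spinal cord and are recognised by the machinery for acetylcholine, by neurofilaments and by peripherin. Disturbed loading of tRNA can activate the kinase GCN2, which slows translation and raises the transcription factor ATF4. ATF4 then binds DNA with C/EBP partners and turns on genes for amino acid import, amino acid synthesis and secreted stress hormones. Cholesterol synthesis is set by another factor, SREBP2, which acts on sterol elements near binding sites for NF-Y, and much of the cholesterol made in the cord goes into myelin.

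The rounded counts came to between 24.45 M and 37.44 M per HET library and between 26.43 M and 38.34 M per HOM library. The labels hold title numbers that begin with 39992, 40411 or 40412, and they do not explain them. HOM libraries 1 to 5 and WT 1 carried 39992. HOM 6 to 8, WT 2 and 3 and HET 1 carried 40411, and HOM 9 and 10, WT 4 to 6 and HET 2 to 6 carried 40412. No HET library carried 39992, so the HOM libraries of this prefix had no HET library to be compared with inside it. The comparison was therefore repeated within the other 2 prefixes (5 HOM, 6 HET and 5 WT libraries). The libraries of prefix 39992 stood apart in Hoxc10, a gene of the caudal body axis, at 50.8 to 58.2 CPM (counts scaled to the size of each library), against 27.6 to 38.0 CPM in the other 16 libraries. Hoxa10 likewise lay at 35.3 to 42.0 CPM against 19.5 to 27.1 CPM. Hoxd10 was mostly higher too, at 20.3 to 47.8 CPM against 1.9 to 22.8 CPM, but those ranges overlapped. These Hox genes were chosen after their values were seen. HOM 3 stood apart by transcripts of peripheral nerve. The 9 Schwann cell markers tested summed to 3510 CPM there, against 135 to 144 CPM in the other HOM libraries and 141 to 150 CPM in HET. The labels give no sex. Xist exceeded 100 CPM in 6 of 10 HOM and 2 of 6 HET libraries, and within prefixes 40411 and 40412 in 4 of 5 HOM and 2 of 6 HET libraries. Yars itself ran from 110 to 123 CPM in HET (median 113) and from 109 to 129 CPM in HOM (median 122). Those ranges overlap, and the log2 fold change of 0.08 (SE 0.0332, edgeR adjusted p = 0.467) did not pass the test. A changed amino acid need not alter transcript level, so this does not test the labels.

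Promoters of some of the genes are shown first, chosen because they hold a motif of the factors named above. They run from 250 bases before to 50 after each annotated start, 5′ to 3′ on the strand of the gene, from RefSeq on GRCm38.p6. The first set is of members of the ATF4 lists and holds the 8-base composite element of ATF4 and C/EBP, TGATGNAA on either strand, in capitals. It belongs to Fgf21 (chr7:45615441-45615740, minus strand), Chac1 (chr2:119350992-119351291, plus strand), Pck2 (chr14:55540016-55540315, plus strand) and Nupr1 (chr7:126625421-126625720, minus strand).
Fgf21: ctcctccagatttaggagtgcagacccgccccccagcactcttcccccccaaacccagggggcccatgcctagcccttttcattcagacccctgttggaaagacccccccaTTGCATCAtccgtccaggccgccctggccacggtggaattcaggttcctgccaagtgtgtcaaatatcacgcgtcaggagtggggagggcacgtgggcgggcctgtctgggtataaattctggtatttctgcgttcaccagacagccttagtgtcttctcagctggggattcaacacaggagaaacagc
Chac1: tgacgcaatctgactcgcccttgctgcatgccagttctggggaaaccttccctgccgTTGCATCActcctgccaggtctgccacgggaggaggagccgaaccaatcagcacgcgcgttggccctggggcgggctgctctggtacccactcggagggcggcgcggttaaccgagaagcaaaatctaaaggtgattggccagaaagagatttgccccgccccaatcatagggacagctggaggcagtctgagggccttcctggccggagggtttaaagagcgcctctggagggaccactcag
Pck2: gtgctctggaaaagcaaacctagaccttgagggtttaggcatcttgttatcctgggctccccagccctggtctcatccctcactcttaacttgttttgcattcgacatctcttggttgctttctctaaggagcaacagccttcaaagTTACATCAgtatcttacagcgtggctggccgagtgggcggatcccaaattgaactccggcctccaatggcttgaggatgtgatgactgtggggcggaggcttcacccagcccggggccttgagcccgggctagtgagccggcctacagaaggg
Nupr1: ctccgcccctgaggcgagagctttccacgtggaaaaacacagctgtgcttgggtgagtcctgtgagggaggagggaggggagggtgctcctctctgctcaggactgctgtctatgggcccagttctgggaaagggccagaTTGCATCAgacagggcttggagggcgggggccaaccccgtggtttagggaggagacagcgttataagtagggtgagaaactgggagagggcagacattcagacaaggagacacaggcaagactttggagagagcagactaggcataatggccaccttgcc
The match begins 139 bases before the start of Fgf21, 193 before that of Chac1, 103 before that of Pck2 and 110 before that of Nupr1. The next pair are of the cholesterol enzymes called lower, Cyp51 (chr5:4104648-4104947, minus strand) and Mvd (chr8:122443373-122443672, minus strand), with the NF-Y box CCAAT, on either strand, in capitals.
Cyp51: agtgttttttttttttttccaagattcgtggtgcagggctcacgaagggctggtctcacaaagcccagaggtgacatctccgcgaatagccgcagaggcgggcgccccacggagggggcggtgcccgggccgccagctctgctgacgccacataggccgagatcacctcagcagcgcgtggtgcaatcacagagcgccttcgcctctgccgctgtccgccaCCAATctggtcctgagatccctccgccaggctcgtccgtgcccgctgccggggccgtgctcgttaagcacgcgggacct
Mvd: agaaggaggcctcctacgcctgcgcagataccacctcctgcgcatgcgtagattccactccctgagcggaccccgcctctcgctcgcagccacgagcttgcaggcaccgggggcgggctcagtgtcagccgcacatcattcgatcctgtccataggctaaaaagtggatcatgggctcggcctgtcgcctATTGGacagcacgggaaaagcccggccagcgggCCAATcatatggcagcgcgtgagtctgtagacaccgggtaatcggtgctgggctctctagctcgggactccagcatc
The box begins 29 bases before the start of Cyp51, and 60 and 27 bases before that of Mvd. Of the 40 genes on the 5 ATF4 lists, 33 had a window, and 11 of these (33.3%) held TGATGNAA, against 4.51% of 27025 genes in the table. Of the 13 genes called higher over all libraries, 3 held it (23.1%): Fgf21, Chac1 and Pck2. Nupr1 was called within prefixes 40411 and 40412 only. Of the 20 cholesterol enzymes, 15 had a window, and 14 (93.3%) held CCAAT, against 41.1% of genes. The core of the sterol element, TCACNCCAC, was in 1 of the 15, that of Hmgcs1. A match is a description of the letters in this window and not a measured binding site.

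A second E196K allele was accompanied by higher levels of a small set of genes, part of them on the ATF4 lists, and by lower levels of a few others. Of 16974 genes tested, 18 (0.106%) passed edgeR's quasi-likelihood test with an adjusted p (Benjamini-Hochberg) under 0.05, and such genes are referred to as called. In HOM 13 genes (0.0766%) were higher and 5 (0.0295%) were lower. One of the 5 is a predicted gene that is not named. Without HOM 3, 23 genes were called, 18 higher and 5 lower, 15 of them among the 18. Of the 17 named genes, 11 lay in every HOM library above every HET library and 1 lay below, while 5 overlapped. Over all genes tested, 0.124% lay wholly above and 0.106% wholly below.

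All 3 genes on the list of hormones of the ATF4 response were called higher. Fgf21 encodes a secreted metabolic hormone. Its level was 0 to 0.16 CPM in HET (median 0.06) and 1.85 to 5.35 CPM in HOM (median 3.10). In counts this was 12 over the 6 HET libraries and 1108 over the 10 HOM libraries, a ratio of 53.3 after scaling for depth (exact 95% binomial interval 30.4 to 103, counting error only). Every HOM library had at least 61 Fgf21 counts and no HET library more than 4. The adjusted p was 8.56e-07.

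Adm2 encodes a peptide of the calcitonin family. It had 3 counts over the HET libraries and 118 over the HOM libraries, a ratio of 22.7 (interval 7.58 to 112, adjusted p = 7.05e-06). Gdf15 encodes a hormone that acts on appetite through the hindbrain. It had 9 counts in HET and 121 in HOM, a ratio of 7.76 (interval 3.96 to 17.4, adjusted p = 0.00181). Both were higher in every HOM library than in any HET library, at 0.23 to 0.51 CPM against 0 to 0.03 CPM for Adm2 and at 0.14 to 0.49 CPM against 0 to 0.12 CPM for Gdf15. For Gdf15 the gap was narrow, since the lowest HOM and the highest HET library had 4 counts each. Neither passed the filter on low counts within prefixes 40411 and 40412.

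A further 3 genes of low level were higher in every HOM library. Cdsn encodes corneodesmosin, an adhesion protein known from skin. Its level was 0.18 to 0.52 CPM in HET (median 0.37) and 1.69 to 2.80 CPM in HOM (median 2.05), a log2 fold change of 2.54 (SE 0.185, adjusted p = 8.41e-09). Stbd1 encodes a protein that tethers glycogen to membranes. Its level was 1.22 to 1.63 CPM in HET (median 1.47) and 2.99 to 6.32 CPM in HOM (median 3.95), a log2 fold change of 1.53 (SE 0.146, adjusted p = 9.29e-07). B4galnt2 encodes an enzyme that adds N-acetylgalactosamine to glycans. It had 9 counts in HET and 299 in HOM, a ratio of 19.2 (interval 9.97 to 42.3, adjusted p = 2.99e-06). B4galnt2 ran from 0 to 0.105 CPM in HET and from 0.37 to 1.61 CPM in HOM.

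Among genes of moderate level the fold changes were smaller. Slc7a1, the carrier for arginine and lysine, was at 72.6 to 75.4 CPM in HET (median 73.8) and 84.3 to 103 CPM in HOM (median 93.2), a log2 fold change of 0.35 (SE 0.0392, adjusted p = 9.22e-06). Chac1, which breaks down glutathione, was at 5.81 to 7.39 CPM in HET (median 6.68) and 8.15 to 12.5 CPM in HOM (median 10.0), with a log2 fold change of 0.60 (SE 0.0762, adjusted p = 7.03e-05). Cyb5r1, of the cytochrome b5 reductase family, was at 17.0 to 20.7 CPM in HET and 22.7 to 25.9 CPM in HOM, with a log2 fold change of 0.36 (SE 0.042, adjusted p = 1.56e-05). No HOM library overlapped a HET library for any of these genes. Pck2, the mitochondrial enzyme that makes phosphoenolpyruvate, differed less, at 18.0 to 22 CPM in HET and 21.8 to 25.5 CPM in HOM (log2 0.24, SE 0.047, adjusted p = 0.0401), and the ranges overlapped.

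**Figure D1:**
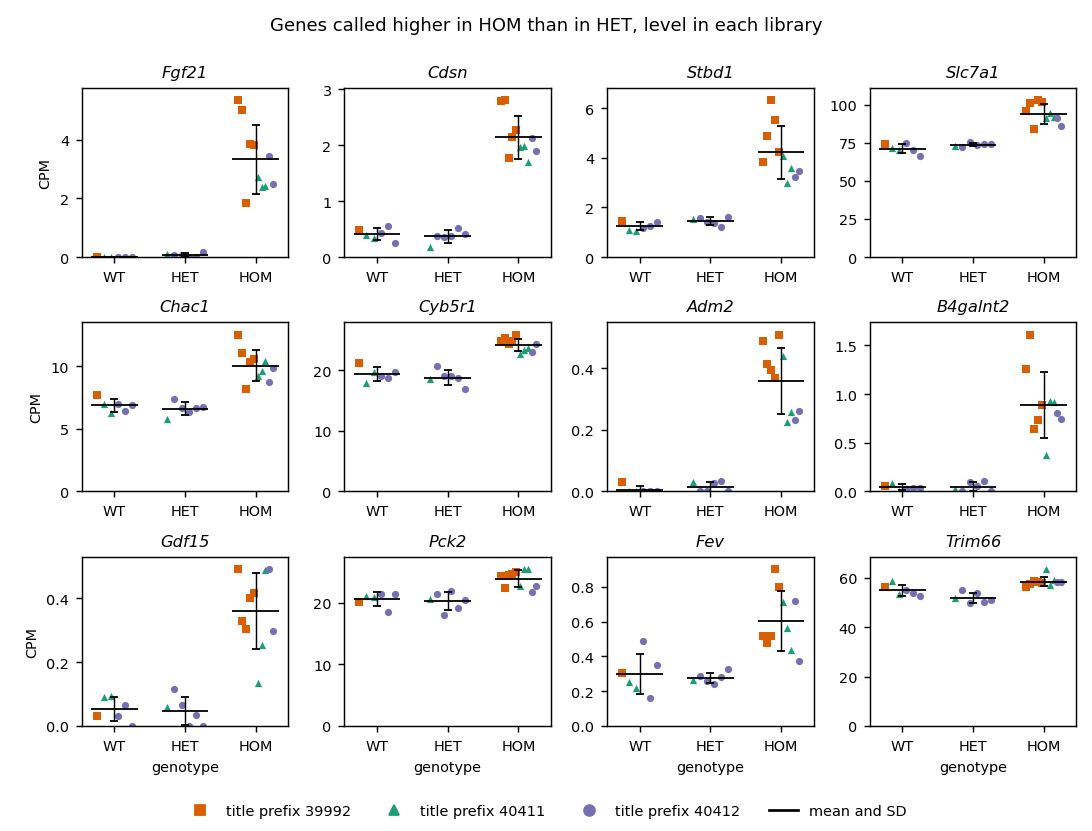
Level in CPM of 12 of the genes called higher in HOM than in HET, in each of the 22 libraries by genotype; symbols mark the title prefix, and bars the mean and SD. Fgf21 lies between 1.85 and 5.35 CPM in the HOM libraries and at or below 0.16 CPM in every HET library.

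HOM libraries varied among themselves in these genes. Stbd1 lay at 3.85 to 6.32 CPM in the 5 HOM libraries of prefix 39992 and at 2.99 to 4.06 CPM in the other 5. Cyb5r1 lay at 24.3 to 25.9 CPM and 22.7 to 24.3 CPM in the same sets. Fgf21 was highest in HOM 1 and HOM 2, at 5.35 and 5.03 CPM, and lowest in HOM 3, the library with peripheral nerve transcripts, at 1.85 CPM. Within prefixes 40411 and 40412 the 5 HOM libraries ran from 2.40 to 3.46 CPM, all above HET. There Fgf21, Cdsn, Stbd1, B4galnt2, Slc7a1, Chac1 and Cyb5r1 were called again, with Nupr1 as the eighth gene higher (0.0473% of 16905 genes tested). In all 8 every HOM library lay above every HET library, as did 0.622% of all genes there. With the title prefix as a covariate over all libraries 10 genes were called (0.0589%). They were 8 higher genes (0.0471%), namely the same list without Nupr1 and with Adm2, and 2 lower genes (0.0118%), Cd24a and Layn.

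Among the other ATF4 genes, positive differences that did not pass the test were frequent. Nupr1, a small chromatin protein and partner in the response, was at 0.87 to 1.37 CPM in HET and 1.49 to 4.50 CPM in HOM. WT libraries ran from 1.10 to 1.93 CPM and overlapped both groups. The log2 fold change was -0.52 for HET against WT and 0.44 for HOM against WT. For HOM against HET, the adjusted p of Nupr1 was 0.0516 over all libraries (log2 0.96, SE 0.199) and 0.0165 within the 2 prefixes (log2 0.89, SE 0.155). The latter call was lost in 4 of 16 fits without 1 library, with the highest adjusted p without HOM 8 (0.0882). Of the 9 regulators on the list, 7 had a positive log2 fold change and none was called. Atf4 itself was at 79.1 to 89.5 CPM in HET and 81.8 to 97.8 CPM in HOM (log2 0.08, SE 0.0381, adjusted p = 0.526).

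Of 9 amino acid carriers 7 were positive and Slc7a1 alone was called, with a median log2 fold change of 0.22 against 0.00 over all genes. That median was 0.07 within the 2 prefixes. Slc7a5, the large neutral amino acid carrier, was at 75.2 to 88.1 CPM in HET and 90.0 to 122 CPM in HOM. The groups did not overlap, but the log2 fold change of 0.31 (SE 0.0745) had an adjusted p of 0.107. Of 13 enzymes of amino acid and one-carbon metabolism 12 were positive and Pck2 was called. Aldh18a1, the first enzyme of proline synthesis, had a log2 fold change of 0.21 (SE 0.0454, adjusted p = 0.0687). Mthfd1l, which makes formate in mitochondria, had one of 0.21 (SE 0.0466, adjusted p = 0.0687). Aldh1l2, a mitochondrial folate enzyme, went the other way, at 19.1 to 22.4 CPM in HET and 12 to 18.5 CPM in HOM (log2 -0.30, SE 0.093, adjusted p = 0.31). The 6 brakes on growth and redox genes were split, 3 positive and 3 negative, with a median of 0.09 and only Chac1 called. Among 23 genes of cytosolic tRNA synthetases and their scaffold 19 were positive and none was called, with a median of 0.04. The smallest adjusted p was that of Rars, for arginine (0.0534), at 36.5 to 39.0 CPM in HET and 39.8 to 43.1 CPM in HOM. Rars too lay higher in every HOM library, by a log2 fold change of 0.12 (SE 0.0262).

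Cdsn, Stbd1, B4galnt2 and Cyb5r1, described above, have no place on the ATF4 lists, and neither do the remaining genes called higher. Fev is an ETS transcription factor known from serotonergic neurons. It was at 0.24 to 0.33 CPM in HET (median 0.27) and 0.37 to 0.90 CPM in HOM (median 0.54), with a log2 fold change of 1.12 (SE 0.224, adjusted p = 0.0441). WT libraries ran from 0.16 to 0.49 CPM and overlapped both groups. Trim66, a tripartite motif protein of chromatin, was at 50 to 55.1 CPM in HET and 56.5 to 63.6 CPM in HOM (log2 0.17, SE 0.0301, adjusted p = 0.0122). Wdr17, a WD-repeat protein, was at 17.3 to 19.4 CPM in HET and 19.3 to 21.8 CPM in HOM (log2 0.19, SE 0.0346, adjusted p = 0.0122). The weakest of these calls moved with single libraries. Fev lost its call in 16 of 22 fits without 1 library and Pck2 in 10, both with the highest adjusted p without HET 3 (0.127 and 0.141). Trim66 lost it in 3 and Wdr17 in 2 such fits, again with the highest p without HET 3 (0.0651 for each).

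Where HET libraries lay between WT and HOM was tested for every gene by the contrast of HET with the midpoint of WT and HOM on the log2 scale. It called 1 gene (0.00589%), and 999 genes had an unadjusted p below 0.05, while DESeq2 called 10. The gene was Cdsn, whose HET level was 1.35 log2 units below the midpoint (SE 0.185, adjusted p = 0.00235). WT libraries had 0.24 to 0.55 CPM of Cdsn and HET libraries 0.18 to 0.52 CPM, so 1 allele left the level in the WT range. Since Cdsn was also chosen by HOM against HET, which shares the HET libraries, this value describes it and is no second test. The same contrast gave -0.15 for Slc7a1 (SE 0.0366, adjusted p = 0.384) and -0.33 for Chac1 (SE 0.0717, adjusted p = 0.243). For Fgf21 it was -0.75 (SE 1.44, adjusted p = 0.995). There the HET libraries had 12 counts in all and the WT libraries none.

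The levels of 2 enzymes of cholesterol synthesis, Cyp51 and Mvd, were lower in HOM than in HET, and the other 18 did not pass the test. Both calls were lost with the title prefix as covariate, and also without HET 3 and HET 6. All 20 enzymes on the list had a negative log2 fold change, with a median of -0.16 against 0.00 over all genes, of which 53% were positive, and 16 had an unadjusted p below 0.05. The smallest difference was that of Tm7sf2, a sterol reductase (log2 -0.02, SE 0.0445, adjusted p = 0.932). Cyp51 removes a methyl group from lanosterol. It was at 124 to 145 CPM in HET (median 132) and 96.4 to 122 CPM in HOM (median 113). Every HOM library lay below every HET library, and the log2 fold change was -0.27 (SE 0.0434, adjusted p = 0.00355).

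Mvd makes isopentenyl pyrophosphate. It was at 19.4 to 22.6 CPM in HET and 14.0 to 20.2 CPM in HOM, ranges that overlap, with a log2 fold change of -0.32 (SE 0.0663, adjusted p = 0.0477). The 5 HOM libraries of prefix 39992 were at 14.0 to 16.3 CPM and the other 5 at 16.8 to 20.2 CPM, with 16.6 CPM in WT 1. It lost its call in 15 of 22 fits without 1 library, with the highest adjusted p without HET 4 (0.127). Msmo1, which acts later in the pathway than Cyp51, was at 109 to 128 CPM in HET and 88.6 to 112 CPM in HOM (log2 -0.20, SE 0.0455, adjusted p = 0.0687). Hmgcs1, at the entry of the pathway, had the highest level of the list, at 350 to 437 CPM in HET and 295 to 375 CPM in HOM (log2 -0.22, SE 0.0603, adjusted p = 0.237).

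Within prefixes 40411 and 40412, 19 of the 20 enzymes were still negative, with a median of -0.12. Cyp51 was called there (log2 -0.25, SE 0.0473, adjusted p = 0.036), and Mvd was not (log2 -0.20, SE 0.0582, adjusted p = 0.404). Cyp51 lost that call in 11 of 16 fits without 1 library, with the highest adjusted p without HOM 6 (0.144), and also without the WT libraries or with the prefix or Xist as covariate. Without HOM 3 the median over all libraries was -0.13. The median log2 fold change of the list was -0.10 for HOM against WT and 0.06 for HET against WT, in which no gene of the 16974 was called (578 had an unadjusted p below 0.05). These comparisons share libraries with HOM against HET.

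Genes next to the pathway showed the same sign less completely. Of 12 genes of sterol sensing and uptake 8 were negative and none was called. Insig1, the feedback protein that retains SREBP, had a log2 fold change of -0.17 (SE 0.0423, adjusted p = 0.139). Of 15 genes of fatty acid synthesis 13 were negative, with a median of -0.09. Aacs, which feeds ketone bodies into lipid synthesis, came nearest to a call (log2 -0.22, SE 0.0449, adjusted p = 0.0516). The 9 genes of cholesterol export had a median of 0.02. Central myelin genes, which draw on this cholesterol, had mostly the same sign: 13 of 16 were negative with a median of -0.10, and none was called. Mbp was at 11300 to 12600 CPM in HET and 8680 to 11700 CPM in HOM (log2 -0.16, SE 0.0482, adjusted p = 0.31), the lowest value being that of HOM 3. The share of myelin or oligodendrocyte RNA in the cholesterol values was not tested.

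**Figure D2:**
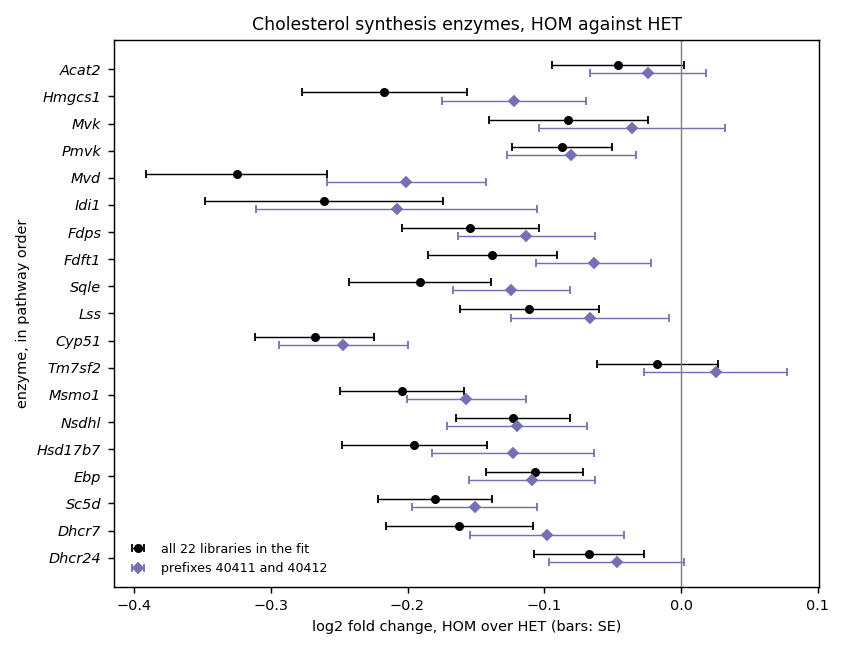
Log2 fold change of HOM over HET for 19 of the 20 enzymes of cholesterol synthesis, in pathway order from top to bottom, with bars for 1 SE; circles are from the fit of all 22 libraries and diamonds from prefixes 40411 and 40412. All 19 circles and 18 of the 19 diamonds lie below 0, with Mvd, at -0.32, the lowest circle.

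The other called genes that were lower were Gramd3 and Nol8. Gramd3 encodes a protein with a GRAM domain, a lipid-binding fold. It was at 22.2 to 26.3 CPM in HET and 16.9 to 22.3 CPM in HOM (log2 -0.27, SE 0.0519, adjusted p = 0.0336). Nol8, a nucleolar protein, was at 19.1 to 22 CPM in HET and 16.6 to 19.1 CPM in HOM (log2 -0.20, SE 0.0402, adjusted p = 0.0441). The ranges met or overlapped. Gramd3 lost its call in 10 and Nol8 in 14 of 22 fits without 1 library, with the highest adjusted p without HET 6 (0.113) and without HET 4 (0.127). Both calls were also lost with the title prefix as covariate.

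Within prefixes 40411 and 40412, several genes known from motor neurons, Chodl, Prph, Slc10a4, Nefl and Nefm among them, were called lower in HOM. There 23 of 16905 genes were called (0.136%), 8 of them higher (0.0473%) and 15 lower (0.0887%), and 8 of the 23 were among the 18 called over all libraries. In each of the 15 lower genes every HOM library lay below every HET library, as did 0.468% of all genes there, and the direction was negative in all 15 over all libraries too. Only Cyp51 of the 15 was also called over all libraries.

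Chodl encodes chondrolectin, a membrane lectin of fast motor neurons. HET libraries had 22.9 to 34.0 CPM (median 26.0), and HOM 6 to 10 had 14.7, 17.6, 15, 17.5 and 18.2 CPM. All 5 were below the lowest HET library, with a log2 fold change of -0.69 (SE 0.1, adjusted p = 0.0041). Prph encodes peripherin, an intermediate filament of neurons with peripheral axons. HET libraries had 41.1 to 48.7 CPM (median 47.1), and HOM 6 to 10 had 35.3, 35.5, 32.7, 40.6 and 37.9 CPM (log2 -0.35, SE 0.0582, adjusted p = 0.011). Slc10a4, a carrier-like protein of synaptic vesicles in cholinergic and monoamine neurons, was at 20.3 to 23.7 CPM in HET and at 16.4, 17.4, 16.4, 17.8 and 17.2 CPM in HOM 6 to 10 (log2 -0.38, SE 0.0574, adjusted p = 0.0041). The gap was narrowest for Prph, 40.6 CPM in the highest HOM against 41.1 CPM in the lowest HET library.

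The light and medium neurofilament genes, which set axon calibre, were lower as well. Nefl was at 1820 to 1930 CPM in HET and at 1570, 1610, 1640, 1670 and 1690 CPM in HOM 6 to 10 (log2 -0.19, SE 0.0318, adjusted p = 0.0098). Nefm was at 1970 to 2300 CPM in HET and 1680 to 1820 CPM in the same HOM libraries (log2 -0.23, SE 0.0432, adjusted p = 0.0282). Kcnj14, an inwardly rectifying potassium channel of motor nuclei, had a log2 fold change of -0.30 (SE 0.057, adjusted p = 0.036). Spp1, or osteopontin, which large motor neurons and activated microglia make and which is on both marker lists, had one of -0.24 (SE 0.0469, adjusted p = 0.0425). Sncg, gamma-synuclein, had one of -0.22 (SE 0.0422, adjusted p = 0.0392).

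Other lower genes are less tied to this cell type. Cd24a encodes a surface glycoprotein of immature neurons and other cells. It was at 67.5 to 95 CPM in HET and 51.3, 52.4, 50.8, 53.4 and 59.8 CPM in HOM 6 to 10 (log2 -0.56, SE 0.0791, adjusted p = 0.00382). Mrvi1, a partner of cGMP kinase at the IP3 receptor, was at 9.82 to 11.6 CPM in HET and 7.01 to 8.80 CPM in the same HOM libraries (log2 -0.44, SE 0.0687, adjusted p = 0.00483). Gem, a small GTPase that restrains calcium channels and is itself induced by activity, had a log2 fold change of -0.60 (SE 0.109, adjusted p = 0.0219). The remaining members were Adam19, a metalloprotease (log2 -0.31, adjusted p = 0.0114), Layn, a hyaluronan receptor (log2 -0.38, adjusted p = 0.0198), and Anxa2, a membrane-binding annexin (log2 -0.31, adjusted p = 0.0219).

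On the list of 12 motor neuron and cholinergic markers, 11 were found and tested. Within the 2 prefixes 9 of 11 were negative with a median of -0.24 against 0.00 over all genes. Of the 11, 3 were called lower (Chodl, Prph and Spp1), against 0.0887% of all genes there. Below every HET library lay 5, against 0.468% of all genes. The list was chosen with earlier results of these data known. Chat, which synthesises acetylcholine, lay at 22.3 to 26.6 CPM in HET and 19.4 to 22.1 CPM in HOM 6 to 10 (log2 -0.23, SE 0.0514, adjusted p = 0.122). Fgf1, abundant in motor neurons, was at 264 to 278 CPM in HET and 238 to 253 CPM there (log2 -0.14, SE 0.0288, adjusted p = 0.0786). Slc5a7, the choline carrier, overlapped (log2 -0.30, SE 0.102, adjusted p = 0.47). The 14 interneuron markers had a median of 0.00 and the 12 synaptic markers one of 0.01 within the 2 prefixes, with no member called.

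**Figure D3:**
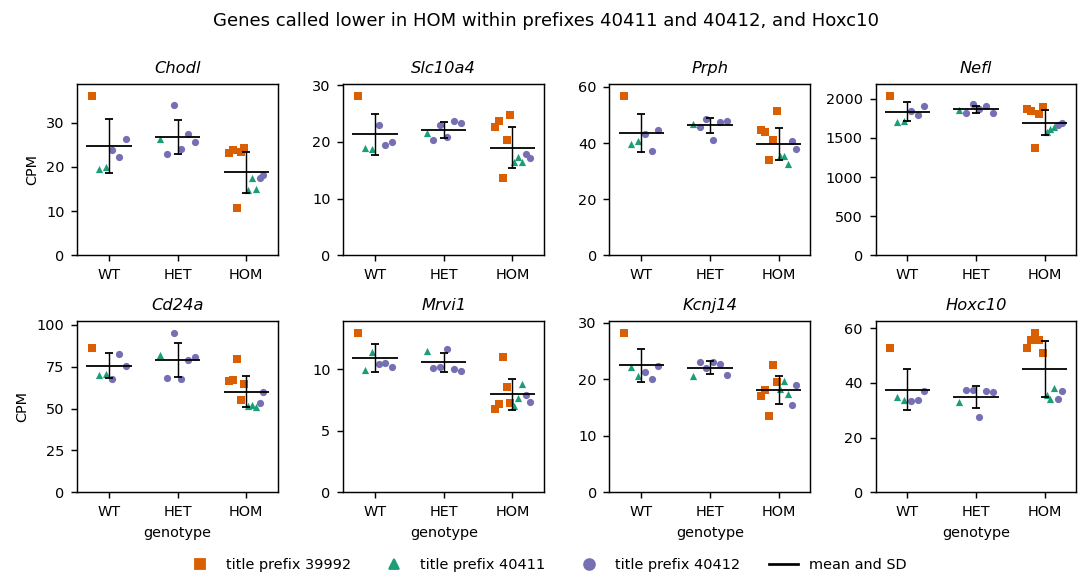
Level in CPM of 7 genes called lower in HOM than in HET within prefixes 40411 and 40412, and of Hoxc10, in each of the 22 libraries by genotype; symbols mark the title prefix, and bars the mean and SD. HOM libraries of 40411 and 40412 lie below every HET library, while those of 39992 often lie higher, with WT 1 above them, and Hoxc10 is raised in all 6 libraries of 39992.

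Over all libraries these differences did not pass the test, apart from that of Cyp51. Chodl had a log2 fold change of -0.51 (SE 0.161, adjusted p = 0.336) and Prph one of -0.22 (SE 0.0901, adjusted p = 0.474). In the HOM libraries of prefix 39992 Chodl was at 23.1, 23.8, 10.7, 23.4 and 24.2 CPM in HOM 1 to 5, so that 4 of 5 overlapped HET. The WT library with that prefix, WT 1, had 35.9 CPM, above all 5. In 9 of the 15 genes all 5 HOM libraries of 39992 lay below WT 1. WT 1 is a single library, and the share of all genes with this order was not counted. The caudal Hox levels given above moved with this prefix in both genotypes, and their part in these levels was not tested. With the prefix as a covariate, Chodl had a log2 fold change of -0.67 but an adjusted p of 0.383. With HOM 3 left out as well, Chodl had -0.65 (SE 0.0846, adjusted p = 0.000374), and Prph had -0.34 (SE 0.0615, adjusted p = 0.0173). HOM 3 was singled out by its own values, so with the prefix as covariate the call of Chodl hangs on whether this library is kept.

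Within prefixes 40411 and 40412, Hoxc10 ran from 27.6 to 37.6 CPM in HET and from 34.1 to 38.0 CPM in HOM. Hoxa10 ran from 19.5 to 27.1 CPM in HET and from 23.3 to 26.2 CPM in HOM. Hoxd10 ran from 1.9 to 22.8 CPM in HET, with the lowest value in HET 4, and from 11.2 to 19.8 CPM in HOM. Xist was unevenly spread there too. Among libraries with Xist above 100 CPM, Chodl was at 14.7 to 17.6 CPM in 4 HOM and at 22.9 and 24.0 CPM in 2 HET libraries. Among those with at most 1 CPM of Xist it was at 18.2 CPM in 1 HOM and at 25.6 to 34.0 CPM in 4 HET libraries. All 15 genes lay below HET in both sets. This follows from every HOM library lying below every HET library there, so it is no test of Xist. With Xist as a covariate 12 genes were called within the 2 prefixes. Chodl, Cd24a, Mrvi1 and Slc10a4 kept their calls, 4 of the 15.

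Leaving out HOM 8 left 5 of the 15 lower genes called (Mrvi1, Nefl, Chodl, Slc10a4 and Cd24a), and leaving out HET 3, HET 5, HET 6 or HOM 7 left 8. Chodl, Cd24a and Mrvi1 kept their calls in all 16 fits without 1 library. Prph lost its call in 1 such fit, without HOM 8 (adjusted p = 0.0535). Spp1 and Sncg lost theirs in 11 of 16, each with the highest adjusted p without HOM 7 (0.209 and 0.191). A fit that allowed for the prefix kept 6 of the 15 calls: Mrvi1, Adam19, Nefl, Chodl, Slc10a4 and Cd24a. Prph and Nefm were among those lost there. Dropping HET 3 and HET 6 together kept only Mrvi1, Chodl and Cd24a, 3 of the 15. Prph, Slc10a4, Nefl and Nefm were then not called. Chodl was at 19.5 to 26.4 CPM in the WT libraries of the 2 prefixes, above every HOM library there, but HOM against WT was not called (log2 -0.43, adjusted p = 0.499). In 7 of the 15 genes every HOM library lay below every WT library of these prefixes. The 15 were picked for low values in these HOM libraries, and the share over all genes was not counted, so this is a description. Mrvi1 was called against WT (log2 -0.44, adjusted p = 0.0133).

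Immediate early genes, which neurons switch on within minutes of firing, were higher in some HET libraries. Of 22 on the list 17 had a negative log2 fold change for HOM against HET and none was called. The median was -0.28, and 11 members had an unadjusted p below 0.05. Within prefixes 40411 and 40412, 20 of 21 were negative, with a median of -0.29. Fos was at 13.4, 17.3, 35.6, 15.6, 21.2 and 29.3 CPM in HET 1 to 6 and at 8.52 to 23.7 CPM in HOM (median 14.0). HET 3 and HET 6 lay above every HOM library and the other HET libraries within the HOM range. The log2 fold change was -0.67 (SE 0.217, adjusted p = 0.34). Fos also moved with the prefix: HOM 6 to 8, of 40411, were at 9.51, 9 and 8.52 CPM and HOM 9 and 10, of 40412, at 16.2 and 23.7 CPM, and with prefix 40412 alone the median of the list was -0.13. Egr1 followed the same order at the top, with 80.0 CPM in HET 3 and 65.4 CPM in HET 6 against 23.7 to 59.7 CPM in HOM (log2 -0.59, SE 0.19, adjusted p = 0.34). Junb came nearest to a call (log2 -0.50, SE 0.115, adjusted p = 0.0905). Without HET 3 and HET 6 the median of the list was -0.07, and the number of genes called over all libraries fell from 18 to 10, all higher in HOM. The list's median was 0.36 for HET against WT and 0.02 for HOM against WT.

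Of the 16 cytosolic heat shock genes all were negative, with a median of -0.09 and none called. With prefix 40412 alone the median was 0.01. Bag3, a co-chaperone, had the smallest p (log2 -0.19, SE 0.0581, adjusted p = 0.306). Genes of endoplasmic reticulum stress were split evenly, 10 and 10, with a median of 0.00 and no call. Within the 2 prefixes 15 of 20 were negative, with a median of -0.06 and no call.

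**Figure D4:**
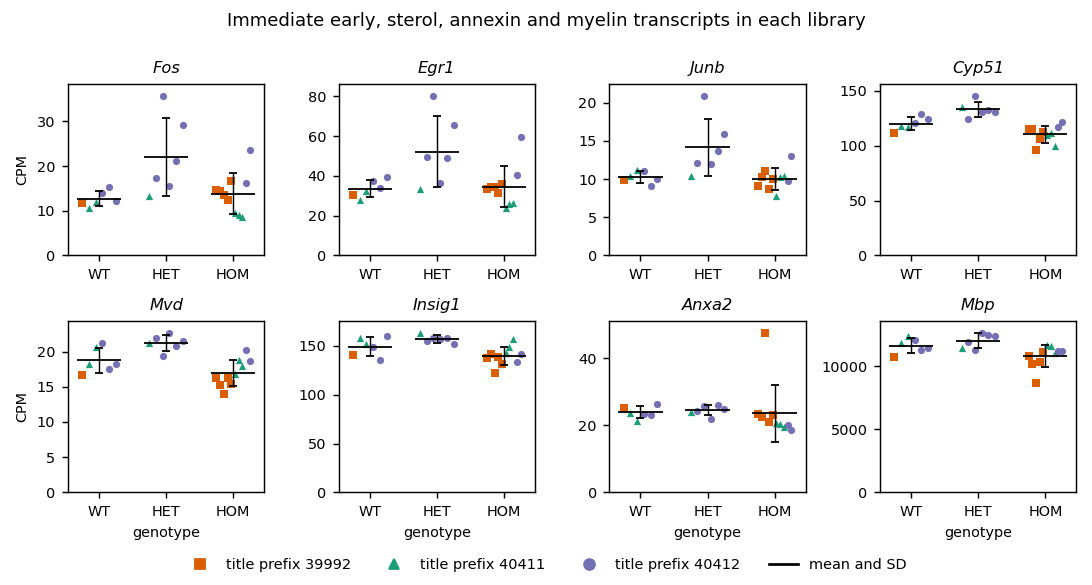
Level in CPM of the immediate early genes Fos, Egr1 and Junb, the sterol genes Cyp51, Mvd and Insig1, the annexin gene Anxa2 and the myelin gene Mbp, in each of the 22 libraries by genotype; symbols mark the title prefix, and bars the mean and SD. HET 3 and HET 6 are the upper HET points for Fos, at 35.6 and 29.3 CPM, and the 1 HOM point far above the rest for Anxa2 is HOM 3, at 47.5 CPM.

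As a sum, Schwann cell markers were raised in HOM 3 alone. Those of fibroblasts, meninges and blood summed highest there and stayed mostly positive within prefixes 40411 and 40412. All 9 Schwann cell markers tested were positive over all libraries, with a median of 1.55 and none called, while within prefixes 40411 and 40412, which leave HOM 3 out, 3 of 6 were positive and the median was -0.02. Of 11 fibroblast and meningeal markers 10 were positive, both over all libraries (median 0.69) and within the 2 prefixes (median 0.13). Their sum was 907 CPM in HOM 3, 356 to 430 CPM in the other HOM libraries and 332 to 421 CPM in HET. All 8 blood markers tested were positive with a median of 0.98. Their sum reached 2260 CPM in HOM 3 and at most 1040 CPM in another HOM library, against 288 to 561 CPM in HET. Within the 2 prefixes 5 of 7 blood markers were positive, with a median of 0.56 and none called. No marker of these lists was at 0 in every HET library. Within the prefixes that do not hold HOM 3, Fgf21, Cdsn, Stbd1, B4galnt2, Slc7a1, Chac1 and Cyb5r1 were called. Of the 10 interferon response genes all were positive (median 0.26, and 0.13 within the 2 prefixes) and none was called. Ifit3 was at 10.1 to 13.3 CPM in HET and 11.3 to 20.9 CPM in HOM (log2 0.36, SE 0.125, adjusted p = 0.371).

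No member of the astrocyte, microglia, oligodendrocyte precursor, endothelial, pericyte and ependymal lists was called over all libraries. Medians were -0.03 for 12 astrocyte markers, -0.04 for 10 markers of homeostatic microglia and 0.02 for 12 of activated microglia. Within the 2 prefixes 1 activated microglia marker, Spp1, was called lower. The 34 cytosolic ribosomal protein genes tested had a median of 0.01 and the 20 genes of the nuclear respiratory chain one of 0.01, with none called. Among 26 genes of inherited neuropathies 17 were positive, with a median of 0.01 over all libraries and no call there. Within the 2 prefixes 14 were positive and 12 negative, 2 lay below every HET library, and 1, Nefl, was called lower.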

How the data were processed

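PolyA-selected RNA of whole spinal cord was prepared with stranded KAPA kits and sequenced in pairs of reads, per the labels' protocols. For each library the authors deposited an RSEM gene table with expected counts, TPM and FPKM, per the file headers. TPM entered an alternative and FPKM was not used. Bowtie2 2.2.0 and RSEM 1.2.12 are named in the submitters' processing notes. For build, annotation and strand use the sources used here give nothing, and RSEM shares reads among near-identical genes, so values of close families or overlapping genes are uncertain. The files held 38924 gene IDs, 37607 of them matched to a symbol. Between 14.41% and 16.23% of deposited expected counts per library were not whole and were rounded.

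Groups came from the genotype labels, and library numbers follow the order of deposition. Genes were filtered with filterByExpr by genotype, scaled by TMM and fitted over all 22 libraries with edgeR 4.0.16 (robust quasi-likelihood) in R 4.3.3. The threshold for a call was 0.05 after Benjamini-Hochberg adjustment over all genes tested. SEs were derived from the F statistics. The fit was repeated, filtered and scaled anew, within prefixes 40411 and 40412. CPM values use TMM-scaled totals of the tested genes. Ratios of summed counts carry exact 95% binomial intervals that cover counting error only, since the reads have no molecular identifiers. Alternatives were RLE scaling, no filter, DESeq2 1.42.0, limma 3.58.1 on log2(TPM + 1) and log2(TPM + 0.1), fewer libraries, and the title prefix or log2(Xist CPM + 0.1) as covariate. The script was tested on simulated data.

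The 41 gene lists, of 3 to 35 genes, the comparison itself and the rule for naming were chosen with earlier results of these data known. 1 list gene was not found and 21 more were not tested. Named were Yars, every called gene except predicted ones, and up to 4 members of a list with the smallest p, except a few genes that are not reported here. Others named in lists, and Hoxa10, Hoxc10 and Hoxd10, were chosen after values were seen. Pairs of libraries within a genotype differed by 1.83 to 9.68 times counting noise, so none was a plain copy of another in its group. This cannot tell whether libraries came from the same animal.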

Additional observations from a re-analysis of the deposited data

Results flagged for a closer look

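Single libraries that lay far from the rest of their group were looked for among the named genes, in 142 groups of HET or HOM values. In 15 groups the highest or lowest library was separated by a gap that exceeded Dixon's 95% limit, where chance gives about 5% of groups, and 7 of the 15 concerned HOM 3. In HOM 3, Anxa2 was at 47.5 CPM (next 23.4), Sncg at 56.3 CPM (next 44.4), Mrvi1 at 11.0 CPM (next 8.80), Nupr1 at 4.50 CPM (next 2.54) and Eif4ebp1 at 2.71 CPM (next 1.92). Chat and Mbp were low there, at 13.3 CPM (next 19.4) and 8680 CPM (next 10200).

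In HOM 10, Fos was at 23.7 CPM (next 16.6) and Egr1 at 59.7 CPM (next 40.7). Trim66 in HOM 6 was at 63.6 CPM (next 59.2), and Calca, which encodes the peptide CGRP, was at 21.2 CPM in HOM 9 (next 16.9). Among HET libraries, Nefm was high in HET 3 at 2300 CPM (next 2040). The others were low values: Prph at 41.1 CPM in HET 4 (next 45.9), Eif4ebp1 at 0.85 CPM in HET 1 (next 1.18) and Oasl2, an interferon-induced gene, at 4.61 CPM in HET 6 (next 5.44).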

How the results depend on the processing

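The 18 genes called over all libraries became 76 with DESeq2 (35 higher, 41 lower), 11 with limma on log2(TPM + 1), 10 with the title prefix as covariate and 4 within prefix 40412 alone. Leaving out HET 3 and HET 6 together (the HET libraries with the most Fos, chosen after seeing the data) left 10. Leaving out 1 library gave 10 (without HET 3) to 39 (without HOM 10), with 11 without HOM 1 or HOM 4. Fgf21, Cdsn, Stbd1, B4galnt2 and Adm2 kept their calls in every alternative that tested them, and Slc7a1, Chac1 and Cyb5r1 in every one but prefix 40412 alone. Within prefixes 40411 and 40412 the 23 calls became 44 with DESeq2, 13 with the prefix as covariate, 12 with Xist and 10 without HET 3 and HET 6. Leaving out 1 library gave 12 (without HOM 8) to 25 (without WT 4), with 15 without HET 3. The 1 call for HET against the midpoint became 10 with DESeq2. The medians of the cholesterol list (-0.17 to -0.13 over all libraries and -0.13 to -0.10 within the 2 prefixes when 1 library was left out) and of the motor neuron list (-0.20 to -0.13 and -0.27 to -0.23) kept their sign in each alternative run. The cause of these shifts was not tested. No paired analysis was possible because the labels give no replicate numbers. Genes under about 0.5 CPM rest on few counts per library, so their ratios carry wide intervals.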

Other observations

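Some further gene groups were read out in the same comparisons. Clock genes were mostly positive for HOM against HET over all libraries, 10 of 16 with a median of 0.08, and mostly negative within prefixes 40411 and 40412, 6 of 16 positive with a median of -0.04. None was called. Per3, a repressor of the clock, was at 41.5 to 52.5 CPM in HET and 49.0 to 74.6 CPM in HOM. Genes induced by glucocorticoids varied widely inside both groups. Plin4, a lipid droplet protein, ran from 8.24 to 30.8 CPM in HET and from 17.2 to 52.2 CPM in HOM, and Zbtb16, a transcription factor, from 22.7 to 36.6 CPM and from 22.6 to 73.7 CPM.

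All 13 mitochondrially encoded genes were negative within prefixes 40411 and 40412 (median -0.14) and 12 of 13 over all libraries (median -0.05), with none called. Gfap, the intermediate filament of astrocytes, was at 1450 to 1980 CPM in HET and 683 to 1760 CPM in HOM, the groups overlapping. Cd44, a surface receptor of reactive astrocytes, was at 20.1 to 23.7 CPM and 15.8 to 22.9 CPM.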
